A study of Mus musculus with 4 samples.

Results

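A set of 9 genes whose products are best known from the mucus and airway-lining fluid of the respiratory tract were followed across thymic epithelial cells: Muc5b, Scgb3a1, Scgb3a2, Bpifa1, Wfdc2, Ltf, Fetub, Agr2 and Agr3. They were matched by symbol to the rows of the count matrices of all 4 libraries, and each of the 9 was found in every library, 9 of 32285 genes in all. The set was drawn up from earlier results of these same libraries, so its levels and its differences between genotypes are given as a description without p-values.

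The libraries were droplet-based transcriptomes of single CD45- stromal cells, taken from the thymus of untreated 6-month-old C57BL/6 mice. WT 1 and WT 2 were wild type, titled Foxn1LacZ mock, and Z/Z 1 and Z/Z 2 were homozygous for the Foxn1LacZ allele, described by the study as a hypomorphic allele of Foxn1, the transcription factor on which thymic epithelium depends. Thymi were pooled for the preparation (10 to 15 thymi, the same protocol text in every library), so animals within a library cannot be told apart, and the labels give the sex of the mice differently in different fields. Foxn1 itself stood at 91.3 and 115 CPM (the UMIs of a gene scaled to a library total of 1e+06, a UMI being a molecular identifier that counts 1 captured molecule) in the summed epithelial cells of WT 1 and WT 2, and at 50.1 and 67.1 CPM in Z/Z 1 and Z/Z 2. The Z/Z values lay below both WT values but were not near 0, and the labels do not place the captured 3′ end relative to the LacZ insertion.

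In airways, secretory cells of the surface epithelium and of submucosal glands release a gel-forming mucin together with small secretoglobins, antimicrobial proteins and protease inhibitors, and multiciliated cells next to them move the resulting mucus. In the thymus, medullary thymic epithelial cells (TECs) use Aire to transcribe many genes of other tissues at low frequency, and small populations of TECs, called mimetic cells, take on the expression programme of a peripheral cell type such as tuft cells, ionocytes, secretory cells or ciliated cells. Both routes expose developing T cells to proteins of distant organs. Of the 9 genes, Muc5b encodes the gel-forming mucin, Scgb3a1 and Scgb3a2 encode secretoglobins, Bpifa1 encodes a surfactant-like defence protein of the BPI fold family, Wfdc2 encodes a whey acidic protein domain protein, Ltf encodes the iron-binding lactotransferrin, Fetub encodes a fetuin of the cystatin superfamily, and Agr2 and Agr3 encode protein disulfide isomerase relatives, the first of which is needed for mucin production in the endoplasmic reticulum.

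On the mouse build GRCm38, all 9 genes are annotated on the plus strand and none overlaps another gene. Muc5b lies at chr7:141839070-141873084 with 49 exons, 19838 bases downstream of Muc5ac. Scgb3a1 (chr11:49663610-49665118) has 4 exons. Bpifa1 (chr2:154142880-154149219) and Wfdc2 (chr2:164562413-164568510) share a chromosome, each beside relatives of its own family, Bpifa3 at 4523 bases and Slpi at 173317 bases. Ltf is at chr9:111019271-111042767, and Fetub is at chr16:22918334-22939778, with its paralogue Ahsg 18884 bases before it. Agr2 (chr12:35992907-36004087) and Agr3 (chr12:35925620-35949736) are neighbours separated by 43170 bases, a pair whose UMIs were found in different cells, as described later.

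The 250 bases before the RefSeq start site of 4 of these genes are shown because their UMIs lay in different cells: those of Scgb3a1, Agr2 and Bpifa1 mostly in 1 epithelial cluster, there with few cells rich in both Bpifa1 and Scgb3a1, and those of Agr3 in another cluster. The sequences are RefSeq promoters on the plus strand of GRCm38.p6, 5′ to 3′, and capitals mark matches on either strand to the forkhead motif TGTTTNC, the ETS motif GGAAGT or the TATA box TATAAA.
Scgb3a1 (chr11:49663345-49663594): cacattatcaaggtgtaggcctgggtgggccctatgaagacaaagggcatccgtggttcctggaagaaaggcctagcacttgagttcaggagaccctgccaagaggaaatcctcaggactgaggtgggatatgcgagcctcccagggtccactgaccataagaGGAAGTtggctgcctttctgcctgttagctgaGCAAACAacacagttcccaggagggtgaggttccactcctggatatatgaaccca
Agr2 (chr12:35992675-35992924): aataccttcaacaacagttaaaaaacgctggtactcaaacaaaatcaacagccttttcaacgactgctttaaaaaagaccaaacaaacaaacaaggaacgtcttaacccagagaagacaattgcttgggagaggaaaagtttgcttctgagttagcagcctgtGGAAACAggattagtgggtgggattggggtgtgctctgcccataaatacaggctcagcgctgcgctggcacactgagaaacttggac
Bpifa1 (chr2:154142630-154142879): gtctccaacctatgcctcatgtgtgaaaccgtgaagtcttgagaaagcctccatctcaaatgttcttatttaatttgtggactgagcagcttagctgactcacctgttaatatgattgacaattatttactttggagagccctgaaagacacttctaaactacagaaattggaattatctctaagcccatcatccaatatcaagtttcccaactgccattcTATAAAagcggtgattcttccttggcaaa
Agr3 (chr12:35925371-35925620): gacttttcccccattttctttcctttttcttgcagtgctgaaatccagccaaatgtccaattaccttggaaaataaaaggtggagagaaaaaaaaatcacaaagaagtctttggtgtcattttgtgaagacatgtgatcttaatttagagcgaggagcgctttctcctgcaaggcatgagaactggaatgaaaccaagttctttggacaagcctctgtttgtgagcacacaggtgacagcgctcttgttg
Promoters were found for 7 of the 9 genes, with Muc5b and Scgb3a2 not in the table. RefSeq and GENCODE starts differ, so the last 18 bases of the Agr2 window, 21 of Ltf, 48 of Fetub and 1 of Agr3 lie inside the GENCODE gene. All 250 bases of the Wfdc2 window do, which is why its letters are not shown. The forkhead letters occurred in 4 of the 7 (Scgb3a1, Ltf, Fetub and Agr2), and 17.8% of 32536 promoters of the same length hold them. The TATA box occurred in Bpifa1 and Fetub, against 12.3% of all promoters, and the ETS letters only in Scgb3a1 among the 7, against 19.8%. The forkhead and TATA letters of Fetub both lie in the 48 bases inside its GENCODE gene. Neither the RFX motif GTTGCNA (8.70% of promoters) nor the letters GACGC of the Foxn1 core (22.7%) occurred in any of the 7 windows. The upstream windows of Agr2 and Agr3 had similar GC contents, 44.4% and 41.6%, and the Wfdc2 window, inside the annotated gene, was the most GC-rich of the 7 at 64.8%. Letters in a window do not show that a factor binds there.

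The 4 libraries held between 1192 and 5558 called barcodes and between 8468086 and 50705511 UMIs. After filtering, 9843 cells remained, of which 4274 were epithelial: 556 of WT 1, 108 of WT 2, 1963 of Z/Z 1 and 1647 of Z/Z 2. Median UMIs per TEC were higher in WT 1 and WT 2 (15783.5 and 18866.5) than in Z/Z 1 and Z/Z 2 (6748 and 6682). Called barcodes recurred between the libraries of a genotype, 202 between WT 1 and WT 2 (16.9% of the smaller library) and 249 between Z/Z 1 and Z/Z 2 (5.53%), whereas libraries of different genotypes shared between 0 and 6. For a shared barcode, the smaller copy held a median of 3.19% of the UMIs of the larger in WT and 1.78% in Z/Z. The main values in sums over TECs and within clusters 12 and 2 are therefore given with and without these barcodes. Because RNA from broken cells enters every droplet, each member's level was further compared with the RNA of droplets in which no cell was called. Intervals and detection limits given below cover counting error only.

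Clustering of the TECs, made without the 9 genes, the companion lists and the marker genes, gave 15 clusters, and the UMIs of 8 of the 9 members were concentrated in the same one. Cluster 12 had 48 cells, 1.12% of TECs and 2.06% of their UMIs. It held 95.2% of all Muc5b UMIs in TECs, 95.2% of Scgb3a2, 92.0% of Scgb3a1, 85.0% of Bpifa1, 82.6% of Ltf, 80.6% of Wfdc2, 72.5% of Fetub and 63.0% of Agr2. Agr3 was the exception, with 2.92% of its UMIs there. Averaged over the 9 members the share was 74.3%, and by library it came to 34.99% (WT 1), 15.2% (WT 2), 76.6% (Z/Z 1) and 58.8% (Z/Z 2; SD 26.9, n = 4). These averages weigh each member alike, however few its UMIs. In all TECs of WT 2, Muc5b, Scgb3a1 and Agr2 had 1 UMI each, outside the cluster, and Scgb3a2 had 0. By UMIs the genotypes were not ordered in this way for every member. The cluster held 3898 of 4149 Bpifa1 UMIs and 2945 of 4303 Wfdc2 UMIs in WT 1, against 401 of 800 and 4449 of 7189 in Z/Z 2. Since every gene of these cells entered the description of the clusters, the contrast of cluster 12 with the other TECs was not tested.

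**Figure D1:**
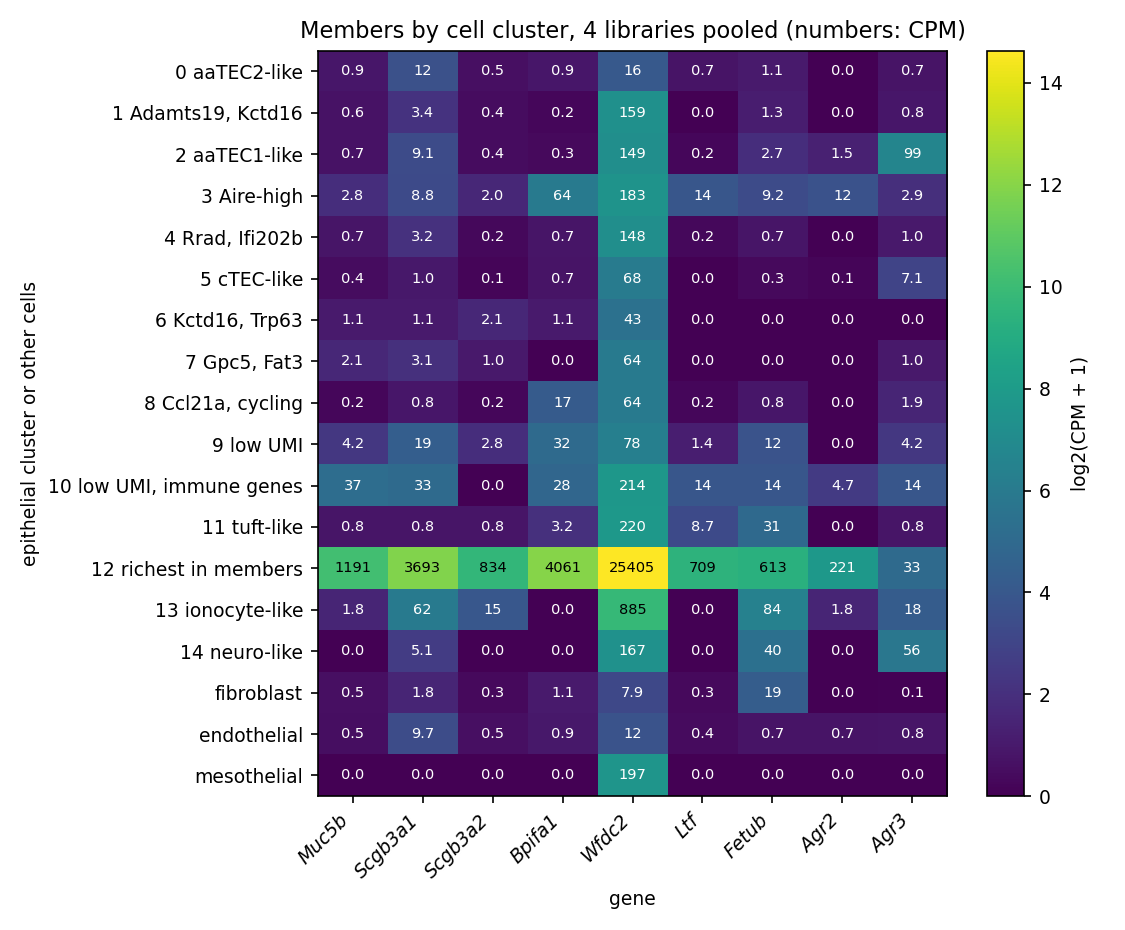
Level of the 9 genes (columns) in the 15 epithelial clusters and 3 other cell types (rows), as CPM of the UMIs pooled over 4 libraries; colour is log2(CPM + 1) and each number is the CPM. Cluster 12 is the brightest row for every gene except Agr3, which peaks in cluster 2 at 99.4 CPM, and Wfdc2 alone stands above 40 CPM in every epithelial row but cluster 0.

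Pooled over libraries, Wfdc2 reached 25405 CPM in cluster 12 and was detected in 93.8% of its cells. Bpifa1 (4061 CPM) and Scgb3a1 (3693.5 CPM) followed, then Muc5b (1191 CPM), Scgb3a2 (834 CPM), Ltf (709 CPM), Fetub (613 CPM), Agr2 (221 CPM) and Agr3 (32.5 CPM). These are numbers of captured molecules and are not scaled by gene length, since 3′ counting reads 1 end of each transcript. In all other TECs together the levels were 128 CPM for Wfdc2, 22.8 CPM for Agr3, 15.1 CPM for Bpifa1 and below 7 CPM for the other 6 members. Apart from Wfdc2, no member was detected in more than 50.0% of the cells of cluster 12, so high pooled levels came from a minority of its cells.

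The cells of cluster 12 carried epithelial markers. Epcam was detected in 91.7% of them, Krt8 in 91.7% and Krt18 in 97.9%, and Foxn1 in 14.6%, against 28.4% of other TECs. Krt5 (28.9 against 191 CPM) and Krt14 (54.2 against 114 CPM) were lower than in other TECs. Cldn3 (265 against 116 CPM), Cldn4, Cldn7 and Cdh1 were higher. Aire was present as 1 UMI in the whole cluster. Of the neighbouring thyroid and parathyroid, 6 markers were low or at 0: 0 UMIs of Slc5a5, 1 of Tg, 2 of Tshr, 3 of Pth, 1 of Casr and 5 of Gcm2. Of leukocyte and fibroblast markers, Tyrobp was at 0, Ptprc at 6 UMIs, Cd3e at 1 and Pdgfra at 1. By marker score the cluster came nearest to aaTEC1, an age-associated TEC state of the study (markers Cldn3, Plet1, Krt5 and Krt8). Its score was 0.604, against 0.810 in cluster 2, among classes with at least 3 markers detected. Clusters 11, 13 and 14, named for other classes, scored 0.567, 0.501 and 0.677 on these markers. The 10 leading genes of cluster 12 were 7 of the members with Klk1, Ecm1 and Cyp2f2. The aaTEC1 name was not used for it, and the cluster is left without a cell type name.

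The airway label applied to cluster 12 only in part. Cyp2f2, a cytochrome P450 of club cells, stood at 1178 CPM there and at 20.8 CPM in other TECs, and Gsto1 at 726 against 12.0 CPM. Muc16, a membrane mucin, had 85.8% of its TEC UMIs in the cluster (115 against 0.399 CPM), and Sox2, a transcription factor of proximal airway epithelium, had 80.9% (34.3 against 0.171 CPM). By contrast Scgb1a1, the defining secretoglobin of club cells, was present as 1 UMI in the cluster, 0.904 CPM against 24.7 CPM in other TECs, and was highest in the Aire-high cluster 3. Nkx2-1, the lung and thyroid lineage factor, had 0 UMIs in cluster 12 and 5 in all TECs. The intestinal mucin gene Muc2 had 0 UMIs there. Muc5ac, the other gel-forming mucin of airway goblet cells, was highest in cluster 12 but on 11 UMIs in 3 cells, 9.94 against 1.83 CPM. Spink5 (3171 against 83.3 CPM), Reg3g (5148 against 216 CPM), Tff1 (743 against 31.4 CPM) and Pigr (638 against 33.0 CPM), which are products of mucosal and glandular epithelium in several organs, were highest in cluster 12 as well.

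Within the 48 cells the members were spread unevenly. Of 13 cells with at least 3 of Muc5b, Scgb3a1, Scgb3a2 and Agr2, 1 was from WT 1, 0 from WT 2, 9 from Z/Z 1 and 3 from Z/Z 2. Of 10 cells with at least 10 UMIs of Bpifa1, 5 were from WT 1, 2 from WT 2, 1 from Z/Z 1 and 2 from Z/Z 2. A single cell met both criteria, a WT 1 cell of 25868 UMIs. These criteria were set after the values were seen. Muc5b and Bpifa1 were detected together in 2 cells, although 16 cells had the former and 14 the latter, whereas Bpifa1 and Ltf were detected together in 9 cells (of 14 and 13). The separation was not complete, since Bpifa1 was detected together with Scgb3a1 in 7 cells, with Agr2 in 5 and with Scgb3a2 in 4. Scgb3a1 and Agr2 were detected together in 12 cells, of 24 and 19.

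The Z/Z 1 cells of the mucin and secretoglobin kind are illustrated by a cell of 34881 UMIs, whose barcode was also called in Z/Z 2, with 536 of Muc5b, 346 of Scgb3a1, 96 of Scgb3a2, 3847 of Wfdc2, 80 of Agr2 and 0 of Bpifa1. The WT 1 cells of the Bpifa1 kind are illustrated by a cell of 19537 UMIs with 668 of Bpifa1, 1993 of Wfdc2, 3 of Scgb3a1 and 0 of Muc5b, Scgb3a2 and Agr2. Both kinds carried Wfdc2, which was found in 45 of the 48 cells. As shares of each cell's UMIs, over cells that differ in library and depth, Spearman's rho was 0.560 for Muc5b with Scgb3a2, 0.568 for Scgb3a2 with Agr2, 0.625 for Wfdc2 with Fetub, 0.507 for Bpifa1 with Ltf and -0.282 for Muc5b with Bpifa1 (48 cells, descriptive). At least 5 members were detected in 17 of the 48 cells, in 2 cells of cluster 3, in 1 of cluster 11 and in 0 of the other clusters.

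**Figure D2:**
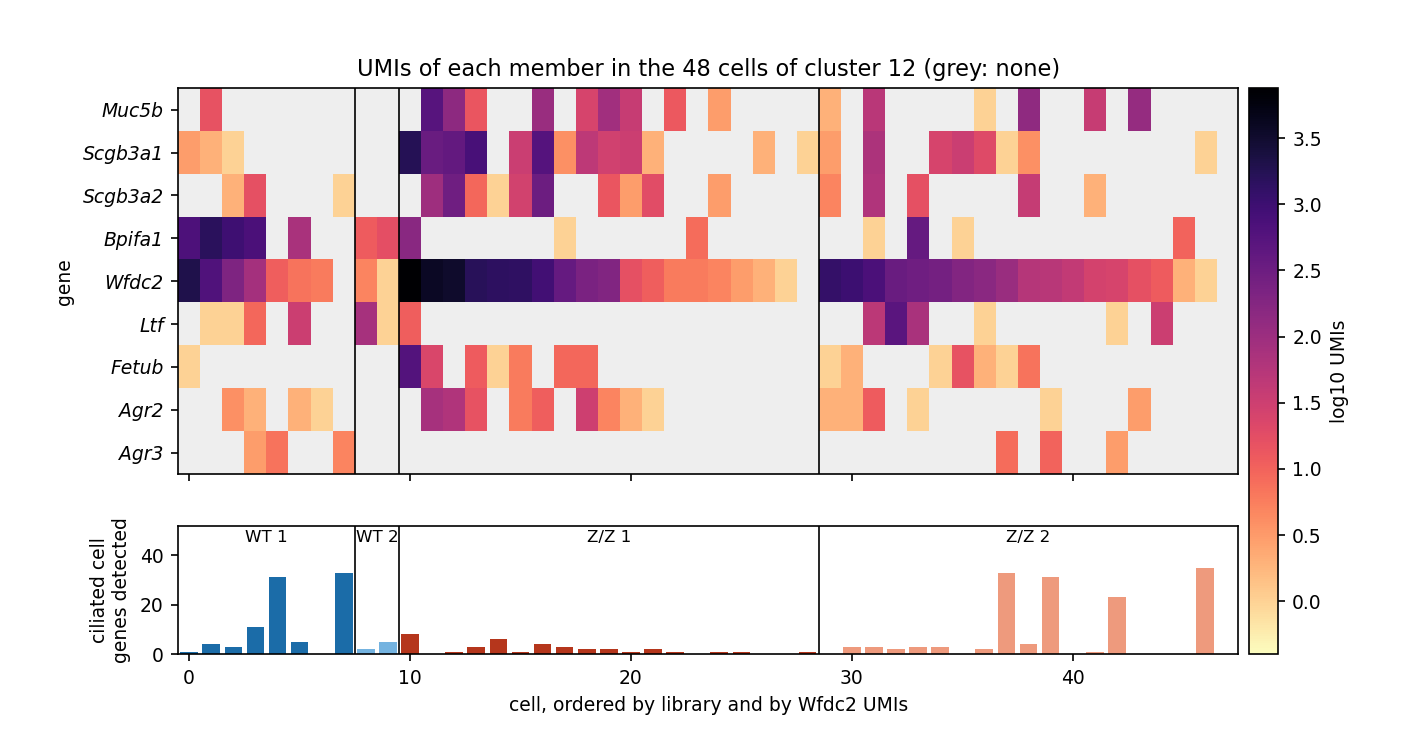
Upper panel, log10 UMIs of each of the 9 genes (rows) in each of the 48 cells of cluster 12 (columns, ordered by library and then by Wfdc2 UMIs; grey is no UMI); lower panel, the number of ciliated cell genes detected in each cell, coloured by library. Bpifa1 is present in 5 of the 8 WT 1 columns, Muc5b, Scgb3a1 and Scgb3a2 fill many Z/Z 1 columns, and 6 cells stand out in the lower panel with 23 to 35 ciliated cell genes.

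In cluster 12, 6 cells, 2 from WT 1 and 4 from Z/Z 2, were rich in the genes of multiciliated cells, with 23 to 35 of 37 listed genes detected. The other 42 cells had at most 11, with a median of 1.5. Foxj1, the master regulator of motile cilia, had between 4 and 20 UMIs in each of the 6. These cells had 33 of the 36 Agr3 UMIs of the cluster (91.7%), and Agr3 was detected in 5 of the 6 at 3 to 10 UMIs per cell. They had 0 UMIs of Muc5b and of Bpifa1, 2 of Scgb3a1, 1 of Scgb3a2 and 195 of Wfdc2 (0.694% of the cluster's). Without these 6 cells, Agr3 fell to 3 UMIs in 42 cells, and the other 8 members kept between 99.3% and 100% of the cluster's UMIs.

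A handful of cells supplied most of the members' UMIs. The Z/Z 1 cell with the most UMIs of the cluster, 169277, had 7527 of Wfdc2, 1714 of Scgb3a1, 588 of Fetub and 157 of Bpifa1, which is 62.9% of all Fetub UMIs in TECs and 38.6% of those of Scgb3a1. Its total is far above the cluster's median of 15839 UMIs, and doublets of such depth were not tested beyond the score used to remove them. A Z/Z 2 cell had 496 UMIs of Ltf, 52.2% of the total. The number of TECs that together held 90% of a member's UMIs was 8 for Bpifa1, 9 for Scgb3a2, 10 for Muc5b and for Ltf, 11 for Scgb3a1, 13 for Agr2 and 40 for Fetub, against 141 for Wfdc2 and 194 for Agr3.

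The deepest Z/Z 1 cell shared its barcode with a Z/Z 2 cell of 3025 UMIs that was also kept in cluster 12. The copy had 183 Wfdc2, 34 Scgb3a1 and 15 Fetub UMIs, so that it held 1.79% of the larger cell's UMIs and 2.33% of its member UMIs, and the 48 cells carried 47 distinct barcodes. The 4 other such cells of the cluster had smaller copies that were not kept. With only the smaller copies left out, the averaged share of cluster 12 was 74.3% as before. With all cells of shared barcodes left out, Scgb3a1 in Z/Z 1 went from 201 to 76.7 CPM, Muc5b from 48.1 to 14.8 CPM, Wfdc2 from 1131 to 501 CPM and Fetub from 35.8 to 8.26 CPM, since the larger cells go too. The averaged share of cluster 12 was then 64.4%, with that of Fetub at 22.3% and that of Agr2 at 45.5%.

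Wfdc2 was detected in the most cells of any member. In clusters 1 to 4, which include the aaTEC1-like cluster 2 and the Aire-high cluster 3, it stood between 148 and 183 CPM and was detected in 42.8% to 61.0% of cells. Ionocyte-like cells (cluster 13) had 885 CPM and tuft-like cells (cluster 11) 220 CPM, whereas the aaTEC2-like cluster 0 had 15.8 CPM. Outside the epithelium it was at 7.91 CPM in fibroblasts and 12.3 CPM in endothelium, but at 197 CPM in 30 mesothelial cells, 29 of them from Z/Z 2, of which 60.0% had a UMI. After each cell was thinned to 2000 UMIs, 87.5% of cells in cluster 12 and 18.6% in cluster 2 retained a Wfdc2 UMI, against 1.87% of fibroblasts. Median UMIs were 15839 in cluster 12, 15652 in cluster 2 and between 10206 and 14676 in the fibroblasts of the 4 libraries.

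Bpifa1 was next highest in cluster 3, at 64.4 CPM. Cluster 3 had 442 CPM of Aire, detected in 74.4% of its cells, and is the cluster of mTEC2-like cells. By library its Bpifa1 stood at 36.4 CPM in WT 1 (30 of 253 cells), 33.3 CPM in WT 2 (2 of 44 cells), 0 in Z/Z 1 (0 of 44 cells, which allows up to 3.51 CPM) and 226 CPM in Z/Z 2 (7 of 66 cells). A single cell supplied 352 of the 384 UMIs of the last value, and 41 of the 45 in WT 2 came from 1 cell. The pattern of few cells with many UMIs recurred for Agr2, whose top cell in all TECs was a WT 1 cell of cluster 3 with 91 UMIs, 84.3% of that library's Agr2. Ltf in cluster 3 was at 13.8 CPM and Agr2 at 12.1 CPM.

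Fetub, known as the gene of a liver plasma protein, was found in several classes. Beside cluster 12 it was highest in ionocyte-like cells (84.0 CPM, 38.7% of cells), neuro-like cells (40.5 CPM, 22.2%) and tuft-like cells (30.8 CPM, 14.3%). In fibroblasts it stood at 18.5 CPM, 574 UMIs in 9.97% of cells, and was higher in Z/Z 1 and Z/Z 2 (28.6 and 25.1 CPM) than in WT 1 and WT 2 (3.14 and 4.00 CPM). Scgb3a1 and Scgb3a2 were likewise next highest in ionocyte-like cells, at 62.1 and 14.6 CPM, and 15 of the 19 Scgb3a1 UMIs of Z/Z 1 and all 15 of Z/Z 2 were in 1 cell each.

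Agr3 followed a different cell type. Cluster 2, whose leading genes were Otog and Fbxo2, held 85.5% of its TEC UMIs at 99.4 CPM, and 54.7% of its 470 cells had a UMI. Agr2, its genomic neighbour and paralogue, stood at 1.51 CPM in the same cells, with 2.34% of cells positive. Neuro-like cells had 55.7 CPM of Agr3 in 22.2% of 18 cells, and the cTEC-like cluster 5 had 7.09 CPM. No cell dominated the total: the cell with the most UMIs had 33, or 2.68% of all Agr3 in TECs, although in WT 2 this cell alone supplied 89.2% of the library's Agr3.

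The levels were set against the RNA of droplets without a called cell. From genes that mark other cell types, such RNA was estimated at 12.0% to 17.0% of the UMIs of TECs and 4.09% to 9.76% of those of fibroblasts, as medians over the marker lists of the other cell types. The single lists gave 6.81% to 67.6% for the TECs of WT 1, 2.41% to 57.0% for WT 2, 5.99% to 25.5% for Z/Z 1 and 7.40% to 76.6% for Z/Z 2, so each ratio below is also read at the highest list. In cluster 12 the observed UMIs of 8 members were between 241 and 1054 times the number expected from this source, and those of Agr3 34.98 times; at the highest list these ratios were still between 71.0 and 237, and 10.9. In the TECs outside cluster 12, Muc5b, Scgb3a1 and Scgb3a2 stood at 0.514, 0.544 and 0.254 times the expected number, so their sums did not exceed the estimate. These sums were not evenly spread over cells. In cluster 3, 25 of the 67 Muc5b UMIs and 13 of the 47 Scgb3a2 UMIs were in 1 cell each. In cluster 2, 1 cell had 38 of the 354 Scgb3a1 UMIs. A sum does not tell free RNA from such cells. Single clusters stood above the estimate on few UMIs, such as Muc5b in cluster 10 (8 UMIs in 99 cells of low depth, 91 of them from Z/Z 2, 12.6 times) and Scgb3a1 in ionocyte-like cells (34 UMIs, 3.08 times). Agr3 (24.3 times), Ltf (4.61 times), Bpifa1 (3.60 times), Agr2 (2.94 times), Wfdc2 (2.59 times) and Fetub (2.52 times) were above the median estimate. At the highest list Agr3 was at 7.60 times, Ltf at 1.04 times and the other 4 between 0.760 and 0.894 times. Outside cluster 12, Agr3 alone thus stood clear of free RNA under every list in the sum of these cells. This concerns the sum only, since single cells of cluster 3 had up to 352 UMIs of Bpifa1, 332 of Wfdc2 and 91 of Agr2. Muc5b, Scgb3a1 and Scgb3a2 were then at 0.147, 0.191 and 0.0830 times. For these genes both the median and the highest list expected more free RNA than was counted. By cluster, Wfdc2 was at 2.49 to 6.63 times the median estimate in clusters 1 to 4 and at 0.759 to 1.68 times the highest. In cluster 0 it was at 0.257 and 0.0810 times. Fetub was at 35.2 times in tuft-like and 31.2 times in ionocyte-like cells (8.46 and 11.8 times at the highest list), and Agr3 at 86.6 times in cluster 2 (28.3 times). Scgb3a2 was at or below the estimate in 12 of the 14 other clusters and above 3 times it in 0. Fibroblast Fetub was at 19.5 times the estimate and Wfdc2 at 0.337 times. In mesothelial cells the lists ran from 0 to 299%, so the Wfdc2 level there cannot be set against free RNA.

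The levels of the members between genotypes were first read in sums over all TECs of a library, in which a smaller number of cells of a type and less RNA per cell cannot be told apart. Muc5b was at 3.54 and 0.388 CPM in WT 1 and WT 2 and at 48.1 and 19.4 CPM in Z/Z 1 and Z/Z 2. Both Z/Z libraries were above both WT libraries, and log2 Z/Z over WT was 3.87 (SE 0.754, edgeR). Scgb3a1 was at 6.58, 0.388, 201 and 13.5 CPM in the same order, with a log2 difference of 4.70 (SE 1.46), and most of its distance came from Z/Z 1. Scgb3a2 was at 2.88, 0, 39.2 and 7.19 CPM (log2 3.69, SE 1.14), where 0 UMIs in WT 2 allow up to 1.16 CPM.

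Wfdc2 was at 354 and 92.7 CPM in WT and at 1131 and 389 CPM in Z/Z, a log2 difference of 1.90 (SE 0.756), with Z/Z 2 barely above WT 1. Bpifa1 ran the other way, at 341 and 36.5 CPM in WT against 12.0 and 43.2 CPM in Z/Z (log2 -2.67, SE 1.08), and the groups overlapped. Ltf (13.0, 35.7, 0.929 and 36.8 CPM), Fetub (7.24, 6.60, 35.8 and 5.24 CPM) and Agr2 (8.89, 0.388, 11.0 and 2.92 CPM) overlapped too, with log2 differences of -0.18, 1.71 and 0.54. Agr3 was at 6.67 and 14.4 CPM in WT and at 30.3 and 26.8 CPM in Z/Z, with a log2 difference of 1.68 (SE 0.389), and its groups did not overlap. Without the WT 2 cell that had most of its Agr3, that library stood at 1.60 CPM. By adjusted p in edgeR, Muc5b and Agr3 (2 of 9) were called higher and none lower, beside 21% of 19003 genes called in either direction, 9.74% higher and 11.3% lower. The Z/Z libraries were both above both WT libraries for 5 of the 9 members, beside 28.3% of the 19003 genes. As the members were selected on results of this contrast, nothing is read from these counts.

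**Figure D3:**
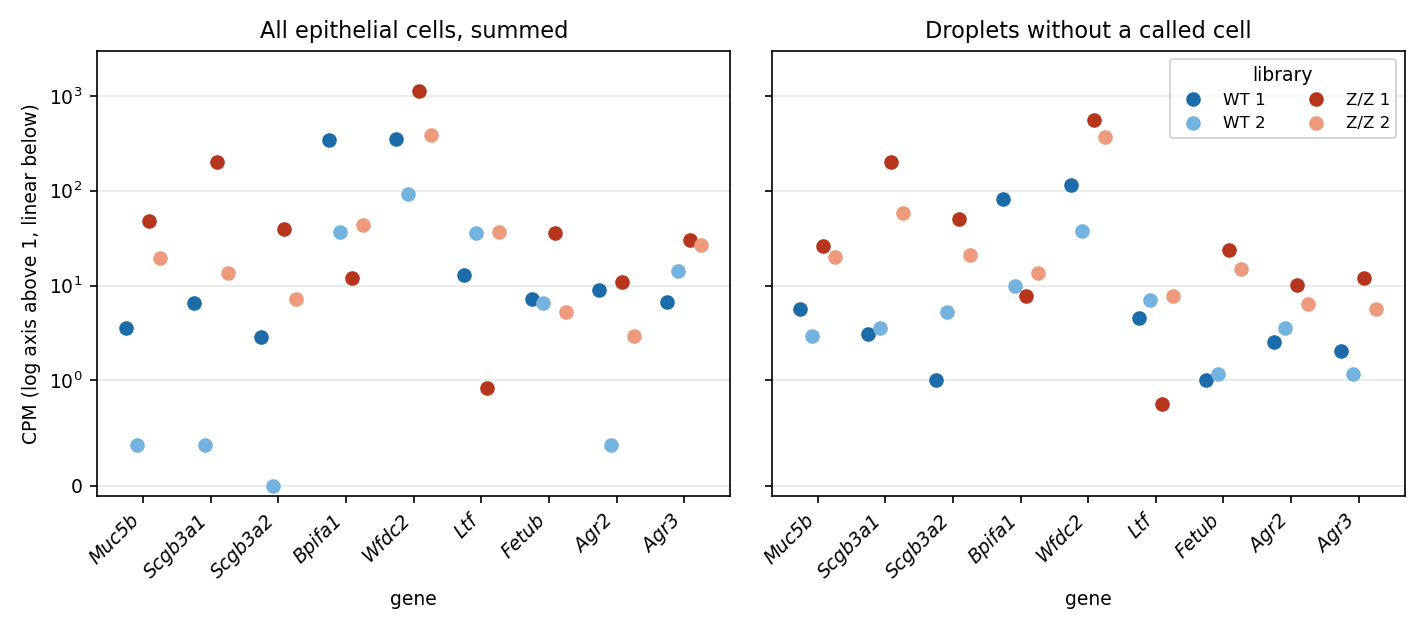
CPM of the 9 genes (columns) in each library, in the summed TECs on the left and in droplets without a called cell on the right; 1 point is 1 library, and the axis is logarithmic above 1 and linear below. In TECs the Z/Z points lie above both WT points for 5 genes (Muc5b, Scgb3a1, Scgb3a2, Wfdc2, Agr3), and in the droplets for 7, beside 28.3% and 31.9% of all genes tested.

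The differences of 8 of the 9 genes shifted when cluster 12 was left out. Without its 48 cells, log2 Z/Z over WT went from 3.87 to -0.57 for Muc5b, from 3.69 to -0.04 for Scgb3a2, from 1.71 to -0.67 for Fetub, from 0.54 to -1.94 for Agr2, from 4.70 to 1.04 for Scgb3a1, from 1.90 to 0.54 for Wfdc2, from -2.67 to -0.70 for Bpifa1 and from -0.18 to -2.61 for Ltf. That of Agr3 was 1.68 with and 1.77 without the cluster. Outside the cluster 67 UMIs of Muc5b, 354 of Scgb3a1 and 47 of Scgb3a2 were left, sums that did not exceed the free RNA estimate. Of those of Muc5b, 25 were in 1 WT 1 cell of cluster 3, so no direction is read from its value.

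Single libraries and cells moved the differences as well. Without WT 1, log2 Z/Z over WT was -0.29 for Bpifa1 and 4.26 for Agr2, and it was 11.35 for Scgb3a2, a fitted value that depends on the prior count since WT 2 had 0 UMIs. Without Z/Z 1 it was 1.91 for Scgb3a1, 0.93 for Wfdc2, -0.26 for Fetub and -0.65 for Agr2, and without Z/Z 2 it was -4.49 for Ltf. Muc5b was between 3.19 and 6.54 and Agr3 between 1.12 and 2.26 in these 4 fits. With cells of shared barcodes left out it was 3.62 for Muc5b, 2.87 for Scgb3a1, 2.13 for Scgb3a2, 0.97 for Wfdc2, 0.09 for Fetub, -1.07 for Agr2, -2.02 for Ltf, -3.38 for Bpifa1 and 1.80 for Agr3. In that fit 0 of the 9 were called, beside 1 of all 17735 genes tested. With each cell thinned to 2000 UMIs, since WT cells were deeper, it was 2.71 for Scgb3a1, 0.49 for Wfdc2, 0.07 for Fetub, -0.82 for Agr2, -4.45 for Bpifa1, 5.31 for Muc5b and 1.51 for Agr3. Muc5b was still called then, Scgb3a1 and Scgb3a2 were called higher and Bpifa1 lower, and Agr3 was not called, nor was it after subtraction of free RNA. Over all genes, 2598 of 12821 were called after thinning and 3091 of 18156 after subtraction. As above, nothing is read from the calls of the members.

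The share of cluster 12 among TECs was 1.44% in WT 1 (8 of 556, exact 95% interval 0.623% to 2.82%), 1.85% in WT 2 (2 of 108, 0.225% to 6.53%), 0.968% in Z/Z 1 (19 of 1963, 0.584% to 1.51%) and 1.15% in Z/Z 2 (19 of 1647, 0.696% to 1.80%). The intervals overlap across all 4 libraries.

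In cluster 12, Bpifa1 was at 13872 CPM in WT 1 and 800 CPM in WT 2 against 398 CPM in Z/Z 1 and 1078 CPM in Z/Z 2. Scgb3a1 was at 21.4 and 0 CPM in WT and at 9409 and 417 CPM in Z/Z, and Muc5b at 53.4 and 0 CPM in WT and at 2310 and 911 CPM in Z/Z. The WT 2 cluster had 36250 UMIs in 2 cells, and a count of 0 there allows up to 82.8 CPM, below every Z/Z value of these genes. Wfdc2 was at 10480, 166, 49639 and 11958 CPM in the 4 libraries, and Ltf at 157, 2234, 26.4 and 1744 CPM. Cells with a Scgb3a1 UMI numbered 3 of 8, 0 of 2, 13 of 19 and 8 of 19, and cells with a Bpifa1 UMI 5 of 8, 2 of 2, 3 of 19 and 4 of 19. With cells of shared barcodes left out of the cluster, Bpifa1 was at 18903, 800, 61.1 and 1084 CPM in the same order, Scgb3a1 at 29.1, 0, 6120 and 328 CPM, Muc5b at 72.7, 0, 1216 and 919 CPM and Wfdc2 at 14282, 166, 35397 and 11560 CPM. Without the cell richest in Bpifa1 of each library, Bpifa1 was at 9564, 843, 36.3 and 34.6 CPM. With 10 WT cells in all, these values describe the cells that were captured. With 2 libraries against 2, an exact two-sided permutation test of a single value cannot go below p = 0.333.

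Droplets without a called cell, which do not depend on the clustering, had a like order. Muc5b was at 5.60 and 2.93 CPM in WT and 25.8 and 19.8 CPM in Z/Z, Scgb3a1 at 3.05 and 3.52 CPM against 199 and 57.9 CPM, and Wfdc2 at 115 and 37.6 CPM against 553 and 366 CPM. Bpifa1 was at 80.9 and 9.98 CPM in WT and at 7.71 and 13.4 CPM in Z/Z. Z/Z libraries were above both WT libraries for 7 of the 9 genes in droplets, all but Bpifa1 and Ltf, and for 5 in TECs, beside 31.9% and 28.3% of the 19003 genes. The droplets hold RNA of the same suspensions and are not independent of the cells.

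For Agr3 the order within its cluster was the reverse of that in the sums, which in WT 2 rested on 1 cell. Within cluster 2 it was at 212 CPM in WT 1 (49 UMIs, 15 cells) and 164 CPM in WT 2 (37 UMIs, 10 cells) against 96.1 CPM in Z/Z 1 (539 UMIs, 256 cells) and 94.4 CPM in Z/Z 2 (429 UMIs, 189 cells). In WT 2, 33 of the 37 UMIs were from 1 cell, which has a shared barcode. Without that cell WT 2 was at 26.9 CPM (4 UMIs, 9 cells), below both Z/Z values, whereas without the richest cell of WT 1 that library was at 169 CPM. With all shared barcodes left out the 4 libraries stood at 214, 147 (4 UMIs, 3 cells), 123 and 100.4 CPM. Cells with a UMI made up 60.0%, 30.0%, 51.6% and 59.8% of the cluster. The cluster itself was 2.70% and 9.26% of TECs in WT (exact 95% intervals 1.52% to 4.41% and 4.53% to 16.4%) and 13.0% and 11.5% in Z/Z (11.6% to 14.6% and 9.98% to 13.1%).

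**Figure D4:**
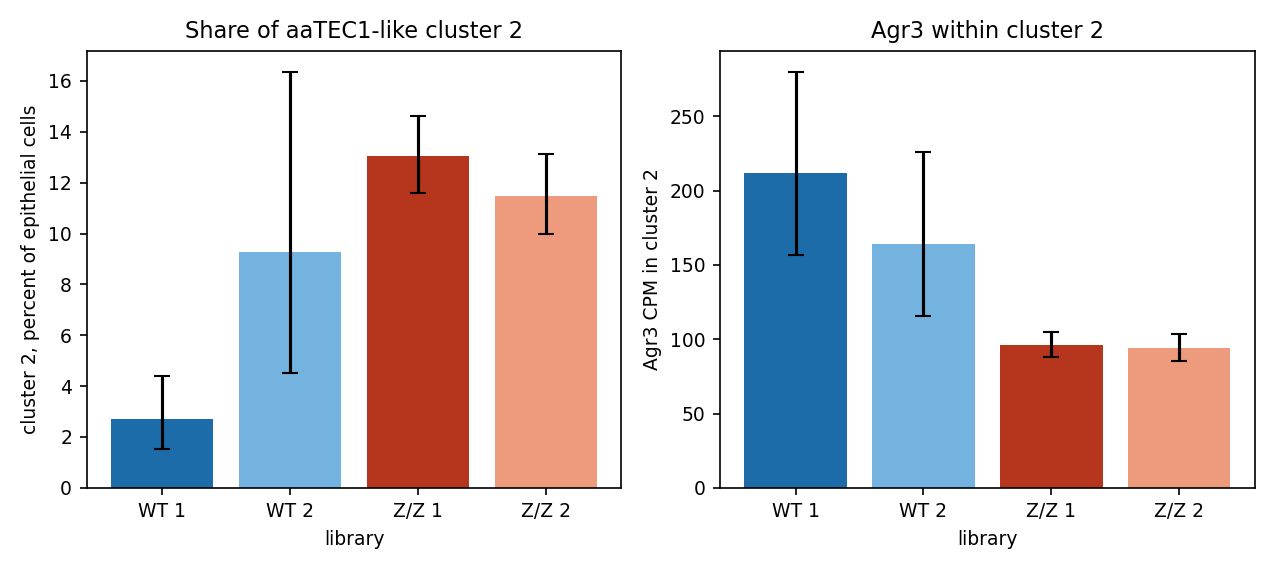
Left, the share of TECs in cluster 2 in each library with exact binomial 95% intervals; right, Agr3 CPM within cluster 2 with exact Poisson 95% intervals, both covering counting error only. The share is lowest in WT 1 (2.70%) and above 11% in both Z/Z libraries, while Agr3 CPM is higher in WT (212 and 164 CPM) than in Z/Z (96.1 and 94.4 CPM), and WT 2 without its richest cell is at 26.9 CPM.

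Genes of the same pathways that are no members were tested in the Z/Z against WT fit (edgeR quasi-likelihood test on TEC sums, Benjamini-Hochberg adjustment over 19003 genes), and each count below stands beside the 9.74% of all genes that were called higher and the 11.3% called lower. Of 42 tested secreted products of airway, salivary and mucosal epithelium, 1 rose and 7 fell, with a median log2 difference of -1.71 against -0.00352 over all genes tested. Lcn2, the siderophore-binding lipocalin, rose from 27.7 and 31.0 CPM in WT to 190 and 122 CPM in Z/Z (log2 2.57, SE 0.269, adjusted p = 0.00819). The secretoglobin Scgb1c1 fell from 38.7 and 57.8 to 3.18 and 9.68 CPM (log2 -2.76, SE 0.544, adjusted p = 0.0251). Bpifb1, a neighbour of Bpifa1 and of the same family, fell from 5.76 and 7.76 to 0.489 and 1.30 CPM (adjusted p = 0.0324). Lyz1, which encodes lysozyme, fell from 166 and 85.0 to 13.2 and 30.9 CPM (adjusted p = 0.0280). Clca3a1 (log2 -2.38) and Dmbt1 (log2 -1.95), the gene of a mucosal scavenger receptor, also fell. In each of these genes both Z/Z libraries lay on the same side of both WT libraries, which the rule for naming genes required.

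Of 30 membrane mucins and apical proteins, 3 rose and 5 fell. The water channel gene Aqp5 rose from 4.94 and 3.49 to 21.5 and 25.9 CPM (log2 2.56, SE 0.283, adjusted p = 0.00857), whereas Aqp4, another water channel gene, fell (log2 -1.75, adjusted p = 0.0384). Among the membrane mucins, Muc1 fell from 74.3 and 90.8 to 9.05 and 22.7 CPM (log2 -2.24, SE 0.434, adjusted p = 0.0242), Muc3a fell (log2 -1.44, adjusted p = 0.0372) and Muc20 rose (log2 2.11, adjusted p = 0.0429). Gsta4, a glutathione transferase gene, rose from 80.8 and 44.6 to 159 and 209 CPM (adjusted p = 0.0209).

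In the list of mucin glycosylation and secretory pathway genes 2 of 42 rose and 7 fell, with a median log2 difference of -0.01. Creb3l1, the gene of a transcription factor of the secretory pathway, rose (log2 2.17, adjusted p = 0.0234), while the glycosyltransferase genes Gcnt1 (log2 -2.30, adjusted p = 0.0167), B4galnt3 (log2 -1.64, adjusted p = 0.0249) and Galnt7 (log2 -1.12, adjusted p = 0.0175) fell. Of 26 transcription factors of airway and gut secretory cells, 5 rose and 3 fell. Notch3 rose from 14.8 and 22.1 to 92.1 and 87.3 CPM (log2 2.47, adjusted p = 0.00814), Cebpd from 149 and 128 to 706 and 584 CPM (log2 2.36, adjusted p = 0.00725) and Pax9 by 1.45 on the log2 scale. Foxa1, a forkhead factor of airway and gut epithelium, fell from 18.8 and 15.9 to 4.11 and 4.87 CPM (log2 -1.82, adjusted p = 0.0148), as did Grhl3 (log2 -2.29) and Hnf4g (log2 -1.76). Among 37 ciliated cell genes 1 rose and 5 fell: Foxj1 fell from 14.2 and 21.7 to 3.28 and 4.11 CPM (log2 -2.12, adjusted p = 0.0165), Mcidas, Dnah9, Rsph4a and Spag6l fell with it, and Kif19a rose (log2 2.41).

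**Figure D5:**
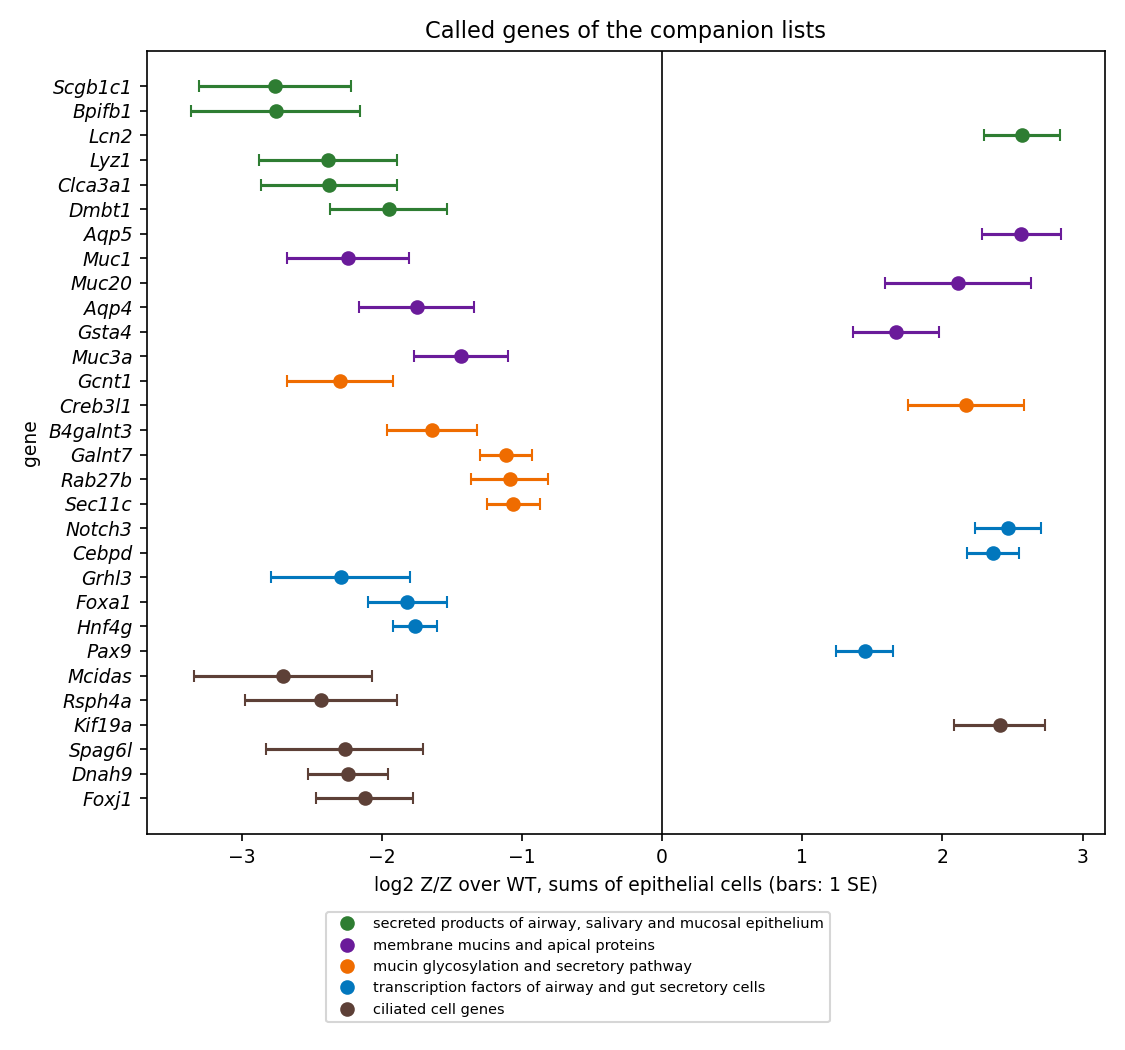
Log2 Z/Z over WT in TEC sums for the 30 named called genes of the 5 companion lists, with bars of 1 SE and 1 colour for each list. Points to the left, such as Scgb1c1 (-2.76) and Foxj1 (-2.12), are lower in Z/Z, and points to the right, such as Lcn2 (2.57) and Notch3 (2.47), are higher.

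Several of the genes that fell were highest in another cluster. Scgb1c1, Bpifb1, Lyz1, Muc1, B4galnt3, Grhl3 and Hnf4g were each highest in the Aire-high cluster 3, which made up 45.5% and 40.7% of TECs in WT but 2.24% and 4.01% in Z/Z. Notch3, Cebpd and Creb3l1, which rose, were highest in cluster 0, with 11 cells from WT 1, 0 from WT 2, 555 from Z/Z 1 and 382 from Z/Z 2, and Gsta4 and Kif19a were highest in cluster 2. The part of these cluster shares in the differences of the sums was not tested. Without cluster 12 the calls of Dmbt1, Muc20 and Rab27b were lost (adjusted p = 0.0588, 0.0774 and 0.0524 in edgeR), and the other 27 of the 30 named genes were still called. With each cell thinned to 2000 UMIs, 25 of the 30 were tested and 7 were not called: Lcn2 (log2 0.74, adjusted p = 0.0902 in edgeR), Gsta4 (log2 0.58, adjusted p = 0.156), Dmbt1, Aqp5, Aqp4, Muc3a and Spag6l. With every cell of a shared barcode left out, 1 gene in the whole table was called by edgeR, with 3236 at an unadjusted p under 0.05, and none of the 29 named genes still tested, while with only the smaller copies left out all 30 were. Of the 108 TECs of WT 2, 57 had such a barcode, and the library lost a larger part of its UMIs. Its Wfdc2 went from 239 to 35 UMIs at a similar level (92.7 and 88.4 CPM). Its cells of cluster 2 went from 225608 to 27123 UMIs.

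By level, 13 of 47 secreted products, 8 of 30 membrane mucins and apical proteins, 10 of 42 glycosylation and secretory pathway genes, 2 of 27 transcription factors (Sox2 and Pax9) and 26 of 37 ciliated cell genes were highest in cluster 12, among genes with at least 20 UMIs in TECs, beside 5.86% of 20314 genes overall. Within the mucin pathway, Spdef, the transcription factor of goblet cells, stood at 45.2 against 3.31 CPM in other TECs, Ern2, an endoplasmic reticulum stress sensor of mucous cells, at 18.1 against 0.438 CPM, and St6galnac1, a mucin sialyltransferase, at 29.8 against 0.438 CPM. The ciliated cell genes Dynlrb2 (93.4% of TEC UMIs) and Sntn (90.9%) had most of their UMIs there.

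Likeness to the members was taken over the 29 combinations of epithelial cluster and library with at least 20 cells, none of which was from cluster 12. The genes most like the members' mean profile were Sigirr (Pearson's r = 0.832), Rasal1, Gp2, Car8, Anxa3, Tmc6, Hbegf, Cat, Car4 and Plcxd3 (r = 0.750). That mean weighs Muc5b, Scgb3a1 and Scgb3a2 like the other members. Their summed UMIs outside cluster 12 did not exceed the free RNA estimate, so these genes are given by value only. For the members singly the closest genes were Ush1c for Agr3 (r = 0.928), Svs4 for Agr2 (0.952), Ms4a10 for Bpifa1 (0.912), Inpp5j for Fetub (0.910), Resp18 for Ltf (0.857) and Slc22a18 for Wfdc2 (0.795). Those for Muc5b (Pi16, 0.900), Scgb3a2 (Egfem1, 0.826) and Scgb3a1 (Fhod1, 0.815) are given by value only for the same reason. Over the 15 clusters pooled across libraries, a choice made after the data were seen, Tmem213 (0.969) and Muc16 (0.961) were among the closest to the mean profile. So were the ciliated cell genes Dynlrb2 (0.960) and Spag17 (0.956). Pooled clusters do not show whether genes lie in the same cells. The 6 cells of cluster 12 rich in ciliated cell genes had 0 UMIs of Muc5b and of Bpifa1. Of the other members except Agr3 they held at most 0.694% of the cluster's UMIs. The points share libraries and depths, and these values are descriptive.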

How the data were processed

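Epithelial cells (TECs) of 4 libraries, 2 WT and 2 Z/Z, were analysed from the UMI counts per gene and barcode, deposited by the authors as filtered and raw matrices. Per the labels' processing notes these counts came from Cell Ranger 7.01 and mouse builds GRCm38.p5 and mm10. No normalization had been applied. No per-sample column was left unused.

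Barcodes with more than 1000 genes and under 20% mitochondrial UMIs were kept (10245 of 13981), and 402 with the highest Scrublet scores per library were removed at the labelled 3.9% multiplet rate, since the automatic threshold marked only 11. Ribosomal and haemoglobin features (100) were left out. Cells were clustered with scanpy 1.11.5 and Leiden (leidenalg 0.10.2, resolution 1, 20 neighbours) and TECs again on 3500 variable genes, without the members, lists and markers. Lineages and classes were named from marker scores, but the aaTEC1 name that cluster 12 scored (0.604) was not used. The members, gene lists and tests were chosen with earlier results of these data known.

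Levels are UMIs of a gene scaled to a total of 1e+06 (CPM) in sums over cells. Free RNA was taken from uncalled barcodes of at most 100 UMIs, scaled by genes that mark other cell types. UMI sums of TECs were compared by edgeR 4.0.16 quasi-likelihood tests (TMM, filterByExpr, two-sided, adjusted p under 0.05, R 4.3.3), with DESeq2 1.42.0 as an alternative. The study's rank-sum test over cells was not used, because cells of 1 library are not replicates. Replicates are pooled preparations, and p-values measure only the spread between these libraries. Up to 6 called genes per list were named, those with the largest log2 difference and no overlap between groups. Scripts were tested on simulated counts. Promoters are from RefSeq (GRCm38.p6), gene positions from the GENCODE annotation given.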

Additional observations from a re-analysis of the deposited data

How the results depend on the processing

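The share of the members' UMIs in the cluster richest in them was 74.3% (cluster 12, 48 cells). It was between 73.5% and 77.3%, in clusters of 40 to 53 cells, at other resolutions, without doublet removal or after subtraction of free RNA. With neighbours balanced over libraries it was 85.6%, but in a cluster of 567 cells, so this value is not a share of cluster 12. The share of cluster 12 ran from 54.7% (without Z/Z 1) to 75.7% when 1 library was left out. Muc5b, log2 3.87 over WT, was at -0.57 without cluster 12, on 67 remaining UMIs, 25 of them in 1 cell. Their sum did not exceed the free RNA estimate. With a replicate block, under which 2548 of 19003 genes were called, Muc5b, Scgb3a1, Scgb3a2 and Wfdc2 were called higher and Agr3 was not. Without the block Muc5b and Agr3 were. Of 3988 genes called, 2548 were called with a replicate block (1107 higher, 1441 lower), 2598 after thinning each cell to 2000 UMIs (39.4% of calls higher, against 46.4%) and 1 with shared barcodes left out, against 3970 with only the smaller copies left out, 4657 by DESeq2 and 5233 without a filter. Leaving out 1 library gave between 690 (without Z/Z 1) and 4128 calls, with 1714 without Z/Z 2, the lone library of a group then being assumed to vary like the others. Replicate numbers are only shared numbers: deviations of same-numbered libraries correlated at r = -0.0991 over 19003 genes, with 2 pairs. Of 444 values of the named list genes under all alternatives, 344 kept their direction and call and 100 kept the direction only, 23 of 30 genes without Z/Z 1, 15 of 30 without Z/Z 2, 5 without WT 1, 1 without WT 2, 8 with the block and 29 of 29 without shared barcodes. Few WT cells, 10 in cluster 12, limit every WT value of the members there.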

Other observations

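Klk1, a tissue kallikrein gene of glandular epithelium, and Ecm1, an extracellular matrix protein gene, were among the leading genes of cluster 12 and were as uneven as the members. A Z/Z 2 cell of 27052 UMIs had 3608 of Klk1 with 1005 of Wfdc2 and 0 of Muc5b, Scgb3a1 and Bpifa1. Klk1 was also found at 613 UMIs in a WT 1 cell with 668 of Bpifa1. Ecm1 was highest, at 812 UMIs, in the Z/Z 1 cell of 169277 UMIs. Cyp2f2 was spread more widely, with a UMI in 70.8% of the 48 cells.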
